A study of Mus musculus with 6 samples.

Results

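The genes described here carry the symbols of the proteins of the cytosolic ribosome and of their relatives. RefSeq lists 1 of them, Rps4l, as a transcribed pseudogene. They were chosen by symbol: Rpl or Rps with a number, an optional letter (a, x or y) or -like suffix, and Rplp0 to Rplp2, without the Rps6k kinases and names with -ps. Of the 19938 genes with a probe set of their own on the array, 60 met this rule, and 58 of these were bright enough to be tested. The 58 comprised 22 genes of the small and 36 of the large subunit. Another 18 symbols of the rule lay only on probe sets shared with other symbols and are not analysed here, among them Rpl11 and Rpl13a.

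RNA of sorted bone marrow cells was measured on 6 Affymetrix arrays, 1 for each of 3 MYB knockdown mice and 3 wild type mice. All 6 were C57BL6 males aged 4 weeks, and the sorted cells were positive for Kit and CD11b and low for lineage markers, a gate the labels call K11bL. The labels do not say how Myb was lowered, in which cells, or by which allele. Every value below is a log2 level from the deposited table, and every difference subtracts the wild type mean from that of the MYB knockdown.

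A ribosome joins a small subunit, which reads the mRNA, to a large subunit, which forms the peptide bond, and most ribosomal proteins are present in a single copy in each. Their mRNAs are among the most abundant of dividing cells and carry a terminal oligopyrimidine (TOP) tract, a C at the transcription start followed by a run of C and T, through which mTORC1 and the RNA-binding protein Larp1 control their translation. Blood-forming progenitors are known for their sensitivity to ribosomal protein dose: loss of 1 copy of several of these genes causes Diamond-Blackfan anaemia in humans.

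The start of transcription is shown for 6 members because the TOP tract is defined from it. The starts are those that RefSeq lists and were not checked against measured ones. A listed start without the tract thus does not show that the mRNA lacks one. RefSeq promoter sequences of GRCm38.p6 were found for 48 of the 60 members. A C at the listed start followed by 4 or more bases that are each C or T, read on the gene's strand, was found in 10 of the 48 (20.8%), against 3.01% of the 27025 genes with a promoter in that table. The 50 bases below run from 30 before the start to 20 from it, 5′ to 3′ on the gene's strand, with the run of pyrimidines at the start in capitals. Rps6, Rpl38, Rpl14 and Rplp2 hold such a run, and Rps4x and Rpl10l hold none at or within 5 bases of the listed start.
Rps6 (chr4:86857348-86857397, minus strand): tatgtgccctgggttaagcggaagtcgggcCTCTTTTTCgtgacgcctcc
Rpl38 (chr11:114668550-114668599, plus strand): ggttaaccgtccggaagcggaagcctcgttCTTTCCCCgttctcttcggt
Rpl14 (chr9:120571487-120571536, plus strand): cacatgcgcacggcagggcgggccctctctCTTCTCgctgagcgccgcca
Rplp2 (chr7:141447621-141447670, plus strand): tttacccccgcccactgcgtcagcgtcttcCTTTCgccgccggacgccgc
Rps4x (chrX:102189372-102189421, minus strand): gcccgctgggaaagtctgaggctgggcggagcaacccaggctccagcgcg
Rpl10l (chr12:66284382-66284431, minus strand): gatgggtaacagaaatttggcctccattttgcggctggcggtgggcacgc

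With a run allowed to begin up to 5 bases from a listed start, the counts became 18 of 48 members (37.5%) and 21.2% of all genes. In the 300 bases around the start, CGGAAG, the core that ETS-family factors bind, stood on either strand in 66.7% of the members, against 18.8% of all genes. AACGG, a core that MYB binds, stood on either strand in 29.2% of the members and in 19.6% of all genes, and it can overlap with the ETS core. TATAAA was found in the 50 bases before the start in 0 of the 48 members and in 3.15% of all genes. The members' promoters had a median GC content of 57%, against 52.7% over all promoters. These matches describe letters in a window and were not tested as binding sites.

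Myb, the targeted gene, had log2 levels of 11.26, 11.08 and 11.14 in knockdown mice 1 to 3, against 11.47, 11.46 and 11.46 in wild type mice 1 to 3. All knockdown values lay below all wild type values, with a difference of -0.30 ± 0.06 (standard error, n = 3 per group; limma, Benjamini-Hochberg adjusted p = 0.0196). The call was lost without knockdown mouse 2 (adjusted p = 0.0776) or wild type mouse 1, 2 or 3 (adjusted p = 0.0965, 0.0894 and 0.0926), while the difference stayed between -0.26 and -0.35. Knockdown mouse 3 stood apart: over all probe sets its array correlated with those of knockdown mice 1 and 2 at 0.977 and 0.984, while those of mice 1 and 2 correlated at 0.994 and the wild type pairs at 0.993 to 0.995. Results whose call turns on it are therefore given with and without it. The sort markers Kit and Itgam (CD11b) were present on all 6 arrays, and neither passed the test with all mice, with differences of -0.27 and -0.39 (adjusted p = 0.06 and 0.202). Without knockdown mouse 3, Kit fell (difference -0.28, adjusted p = 0.0147) and Itgam did not pass (-0.20, adjusted p = 0.199).

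The ribosomal protein genes as a set differed little between MYB knockdown and wild type cells, and almost all of the small differences pointed upwards. In limma's test over 13956 genes, with a threshold of 0.05 on the adjusted p, 1 of the 58 members rose, Rps4l, and 0 fell. That is 1.72% of the members, below the 6.12% of all genes that rose and the 5.48% that fell. At an unadjusted p under 0.05, 11 members were higher (19.0%, against 15% of all genes) and 0 lower (against 10.6%). In 47 of the 58 (81%) the difference was under 0.2 in size, as it was in 62.4% of all genes. The fit's standard error had a median of 0.07 over the members and 0.12 over all genes tested.

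The direction was shared more widely than the calls. The difference was above 0 in 51 of the 58 members (87.9%), against 53.6% of all genes tested. This share was lowest, at 75.9%, without knockdown mouse 1 or wild type mouse 2, against 56.7% and 55.9% of all genes. It was highest, at 94.8%, without wild type mouse 3, against 53.3% of all genes. The members' median difference was 0.09 and that of all genes 0.02. With each mouse left out, the former ran from 0.06 to 0.10 and the latter from 0.01 to 0.04. All 3 knockdown values lay above all 3 wild type values in 21 members (36.2%), against 19.9% of all genes. In 0 members did all knockdown values lie below all wild type values, which held for 14.4% of all genes. The members share the same 6 arrays and are not replicates, so these counts carry no p-value.

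Brightness was considered beside these counts, since the members are among the brightest genes of the array and changes can be compressed where the signal is strong. Their mean levels had a median percentile of 99.05 among all genes, and 47 of the 58 had a mean of 10 or more. Among genes that bright, 41 of 47 members (87.2%) were higher in the knockdown, against 58.2% of all 1264 such genes. Their median difference was 0.07, against 0.03 over those 1264 genes. The medians lay close together without knockdown mouse 3, at 0.08 for the bright members and 0.07 for all bright genes. Of the bright members 91.5% were then higher, against 67.0% of all bright genes. The small subunit had a median difference of 0.07 (0.06 without Rps4l) and the large subunit 0.10, and 19 of 22 and 32 of 36 genes were above 0. The order turned without knockdown mouse 3, with 0.11 for the small and 0.09 for the large subunit.

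**Figure D1:**
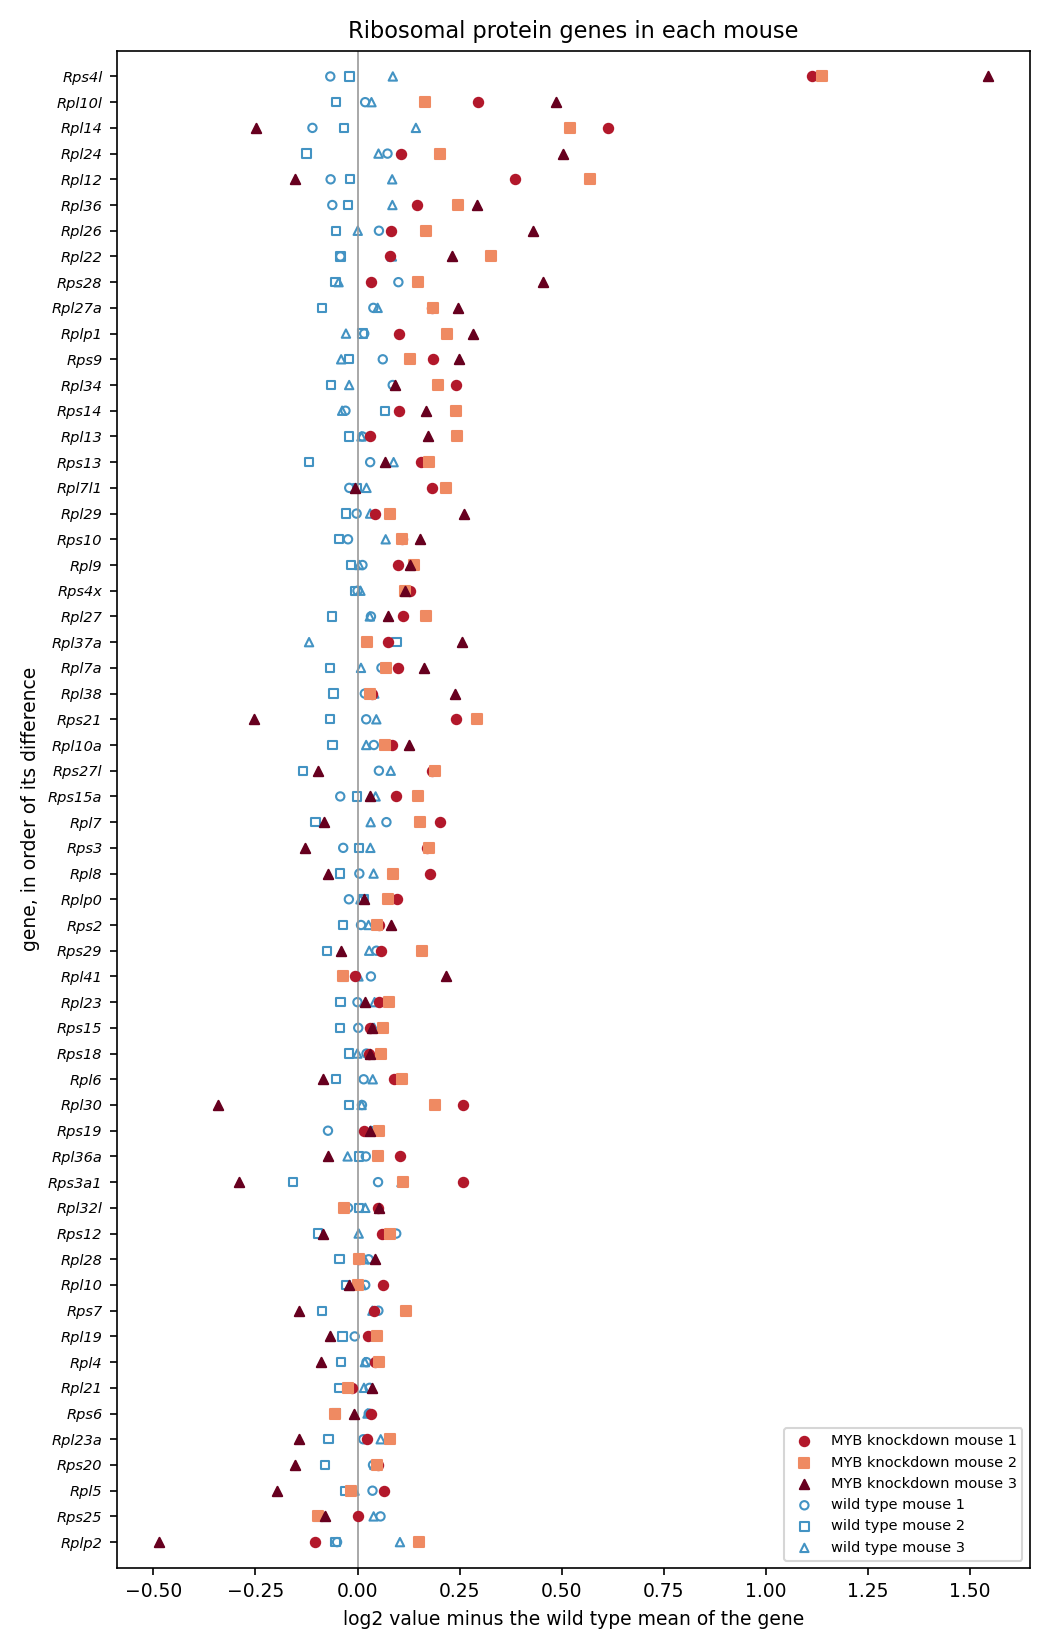
Log2 level minus the gene's wild type mean (horizontal axis) for each of the 58 tested ribosomal protein genes (vertical axis, ordered by difference from Rps4l at the top to Rplp2 at the bottom). Each point is a mouse, filled for MYB knockdown and open for wild type; the 3 knockdown points of Rps4l lie far to the right, and knockdown mouse 3 lies to the left of both other knockdown mice in 28 genes.

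**Figure D2:**
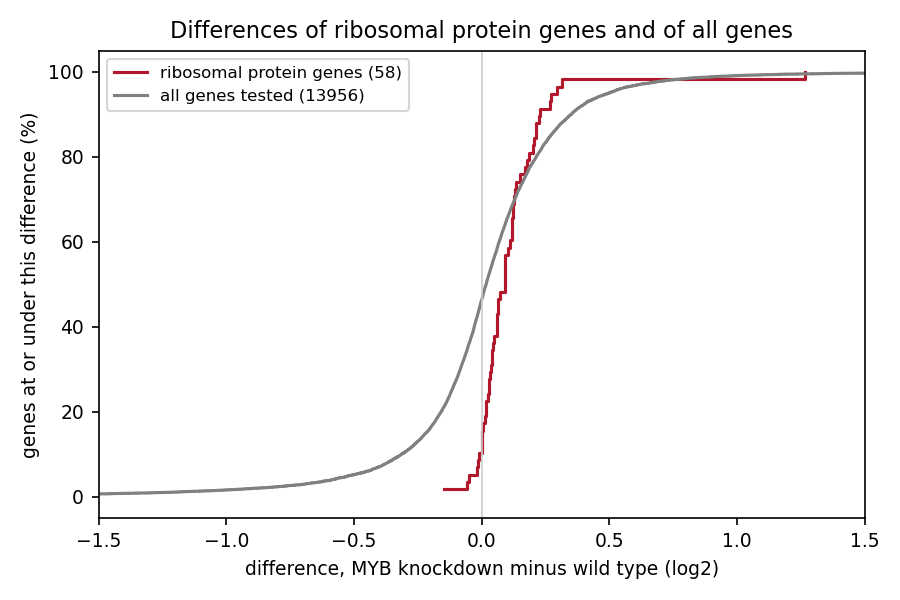
Percent of genes at or under a given difference (vertical axis), against the log2 difference between MYB knockdown and wild type (horizontal axis, its ends not shown), for the 58 ribosomal protein genes and for all 13956 genes tested. The ribosomal protein curve is the steeper, with 87.9% of its genes above 0, against 53.6% of all genes, and its last step is Rps4l at 1.26.

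Rps4l was the one member that rose. It is a relative of Rps4x, the X-linked gene of the small subunit protein eS4, and RefSeq lists it on chromosome 6 as a transcribed pseudogene, the only such entry among the 60 members; the other 59 are listed as protein coding. Rps4l had log2 levels of 8.35, 8.37 and 8.78 in knockdown mice 1 to 3, against 7.17, 7.22 and 7.32 in wild type mice 1 to 3. The groups were far apart, with knockdown mouse 3 the highest. The difference was 1.26 ± 0.14, a 2.40-fold rise (95% interval 0.95 to 1.58 on the log2 scale, adjusted p = 0.000814).

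A second probe set of Rps4l, which the main result did not use, read 7.77, 7.69 and 8.33 in the knockdown mice and 7.05, 6.95 and 7.08 in the wild type mice. In both probe sets every knockdown value lay above every wild type value, with knockdown mouse 3 the highest, and the second gave a difference of 0.91. Rps4l was called with each mouse left out in turn, with differences between 1.13 and 1.34 and adjusted p between 2.51e-05 and 0.0085, and at 1.13 without knockdown mouse 3.

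Rps4x, whose product is an essential part of the small subunit, had 11.89, 11.88 and 11.88 in the knockdown mice, against 11.76, 11.75 and 11.77 in the wild type mice. Its groups did not overlap and varied by less than 0.01 (SD) within each, but the difference of 0.12 ± 0.05 did not pass the test (adjusted p = 0.148). Probes of closely related sequences can bind each other's RNA, and how much of the Rps4l signal such binding makes up was not tested.

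The other paralogs, copies of ribosomal protein genes that replace or accompany the common form in some tissues, gave smaller values. Rpl10l, known from the testis, where it takes the place of the X-linked Rpl10, was dim, at 5.39, 5.26 and 5.58 in knockdown mice and 5.11, 5.04 and 5.13 in wild type mice. Its groups did not overlap, and its difference of 0.32 ± 0.10 was the largest after that of Rps4l but did not pass the test (adjusted p = 0.0914). Rpl10 itself, which helps to form the site of peptide bond formation, differed by 0.01 ± 0.04 (95% interval -0.08 to 0.11).

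Rpl7l1, a relative of Rpl7 that acts in ribosome assembly, differed by 0.13 ± 0.08 (adjusted p = 0.342), and Rps27l, a relative of Rps27 that p53 induces, by 0.09 ± 0.10 (adjusted p = 0.635). Rpl22l1 and Rpl36al are measured only by shared probe sets, and the remaining 2 paralogs of the list were too dim to be tested. Rpl3l, the form of heart and skeletal muscle, had 4.73, 4.65 and 4.53 in the knockdown and 4.76, 4.64 and 4.56 in the wild type mice, and Rpl39l, a form of the testis, had 3.93, 3.69 and 4.41 against 3.77, 3.82 and 3.72. Both sets overlap, and both lie in the lowest 30% of genes by mean level.

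**Figure D3:**
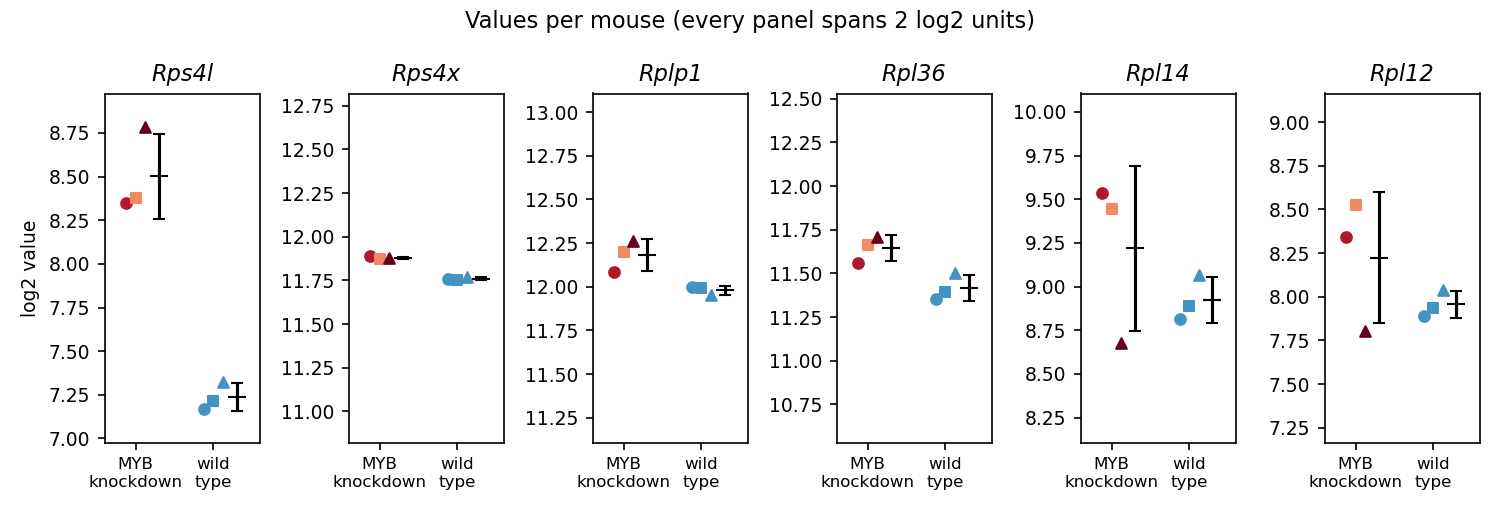
Log2 level (vertical axis) of Rps4l, Rps4x, Rplp1, Rpl36, Rpl14 and Rpl12 in each mouse, MYB knockdown left of wild type; circles, squares and triangles are mice 1, 2 and 3, bars the mean ± SD, and every panel spans 2 units. The groups are separate for Rps4l, Rps4x, Rplp1 and Rpl36, while for Rpl14 and Rpl12 the lowest of all 6 points is that of knockdown mouse 3.

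In the small subunit, the members with roles of their own lay close to the wild type. Rps6, the protein that S6 kinases phosphorylate downstream of mTORC1, had 12.44, 12.35 and 12.40 in the knockdown and 12.43, 12.36 and 12.43 in the wild type mice. The values overlap throughout, with a difference of -0.01 (95% interval -0.12 to 0.10, adjusted p = 0.934). Rps19, the gene most often mutated in Diamond-Blackfan anaemia in humans, had 10.60, 10.63 and 10.61 in the knockdown against 10.51, 10.62 and 10.61 in the wild type mice. Only wild type mouse 1 stood lower, and the difference was 0.03 (95% interval -0.12 to 0.19, adjusted p = 0.835).

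Rps14, whose loss of 1 copy underlies the anaemia of the 5q- syndrome in humans, had 11.04, 11.18 and 11.11 in the knockdown mice, against 10.91, 11.01 and 10.90 in the wild type mice. All knockdown values lay above all wild type values. The means differed by 0.17 ± 0.07, which did not pass the adjusted test (adjusted p = 0.156). Rps9, whose yeast counterpart helps to keep decoding accurate, likewise had separate groups, at 11.23, 11.17 and 11.29 against 11.11, 11.02 and 11 (difference 0.19 ± 0.06, adjusted p = 0.104). At the other end of the small subunit, Rps25, which many viral internal ribosome entry sites need, had the lowest difference, at -0.06 ± 0.07, and Rps20, a protein of the head of the subunit, -0.02 ± 0.07. The rise of Rps4l apart, small subunit differences thus ran from -0.06 to 0.21, the highest being that of Rps28.

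Nearest to the threshold in the large subunit were Rplp1 and Rpl36. Rplp1 encodes P1, which with P2 (Rplp2) and P0 (Rplp0) forms the stalk that recruits and stimulates elongation factors. It had 12.08, 12.20 and 12.26 in the knockdown mice, against 12, 11.99 and 11.95 in the wild type mice. The groups did not overlap, and the difference was 0.20 ± 0.06, a 1.15-fold higher level (adjusted p = 0.0582). Rplp0 differed by 0.06 ± 0.04 (adjusted p = 0.438), with groups that also did not overlap.

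Rplp2 was the member with the lowest difference of all. It had 6.31, 6.56 and 5.92 in the knockdown mice, against 6.36, 6.36 and 6.52 in the wild type mice. Knockdown mouse 2 was the highest and knockdown mouse 3 the lowest of the 6, and the interval of the difference was wide (-0.15, 95% interval -0.51 to 0.22, adjusted p = 0.646). Without knockdown mouse 3 the difference of Rplp2 was 0.02. Rplp2 was read by 1 probe set, and its mean level stood at percentile 51.2 among genes, against 99.95 for Rplp0 and 99.85 for Rplp1. The 95% intervals of the 3 stalk genes overlapped, with -0.04 to 0.16 for Rplp0 and 0.07 to 0.33 for Rplp1. None of the 3 passed the test.

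Rpl36 had 11.56, 11.66 and 11.71 in the knockdown mice, against 11.35, 11.39 and 11.50 in the wild type mice. The groups did not overlap, and their means differed by 0.23 ± 0.07, a 1.17-fold higher level (adjusted p = 0.0605). All 9 of its probe sets gave a difference between 0.22 and 0.25. Rpl27a gave 0.20 ± 0.06 (adjusted p = 0.0782). Rpl24, a late-joining protein at the bridge between the subunits, had 10.02, 10.11 and 10.41 in the knockdown mice against 9.99, 9.79 and 9.96 in the wild type mice. Its lowest knockdown value was just above its highest wild type value, and the difference of 0.27 ± 0.12 did not pass (adjusted p = 0.192).

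Rpl5, which carries 5S rRNA and binds the p53 regulator Mdm2, had 11.81, 11.73 and 11.55 in the knockdown and 11.78, 11.72 and 11.74 in the wild type mice. Its groups overlapped, with a difference of -0.05 ± 0.07 (95% interval -0.22 to 0.12). Rpl22, whose loss in mice impairs lymphocyte development, differed by 0.21 ± 0.10 (adjusted p = 0.247). Rpl38, which in mice is needed for the translation of Hox mRNAs, differed by 0.10 ± 0.07 (adjusted p = 0.447), and Rpl23a, a protein at the exit of the peptide tunnel, by -0.01 ± 0.07. Large subunit differences ran from -0.15 for Rplp2 to 0.32 for Rpl10l.

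Of 19 genes mutated in Diamond-Blackfan anaemia in humans, 9 were tested, and 0 passed the test in either direction, with 1 higher and 0 lower at an unadjusted p under 0.05. The difference was above 0 in 8 of these 9, with a median of 0.09, the same as that of all members. The exception was Rpl5.

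The members did not move as 1 block, and knockdown mouse 3 was where they parted, above all those with a mean log2 under 10. Relative to the wild type mean, the 58 members had a median shift of 0.09, 0.11 and 0.03 in knockdown mice 1, 2 and 3, against 0.01, 0.03 and 0.05 over all genes, so in mouse 3 the members' median was the lower. They lay above the wild type mean in 94.8%, 89.7% and 58.6% of the genes in these mice, against 51.5%, 55.9% and 55.6% of all genes. In mouse 3 the members' share was thus near that of all genes. The spread of the shift over the members was 0.17, 0.18 and 0.28 (SD) in these mice, against 0.37, 0.40 and 0.50 over all genes. In the 11 members with a mean log2 under 10 the spread was 0.33, 0.32 and 0.57. In the 47 brighter members it was 0.06, 0.08 and 0.17. The 11 include Rps4l, whose own shifts of 1.11, 1.14 and 1.54 widen their spread and that of the 58. The spread over other genes as dim as the 11 was not measured here. The median shift in mouse 3 was -0.15 in the 11 and 0.04 in the 47. Small common shifts also occurred among the wild type mice: in wild type mouse 2, 8 of the 58 members lay above the wild type mean, with a median shift of -0.04.

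Knockdown mouse 3 was below both other knockdown mice in 28 members, above both in 20 and between them in 10. It was below both in 48.3% of the members and 42.9% of all genes, and above both in 34.5% and 44.9%. It had the lowest level of all 6 mice in 27.6% of the members and 29.3% of all genes. In 39 members (67.2%), knockdown mice 1 and 2 both lay above all wild type mice, against 32.3% of all genes. In 11 of these 39, or 19.0% of the members, knockdown mouse 3 had the lowest level of all 6, against 7.71% of all genes. Among all genes these were 1076 of the 4512 with mice 1 and 2 above all wild type mice. The gap between 19.0% and 7.71% thus goes largely with that between 67.2% and 32.3%. The largest gaps below the mean of mice 1 and 2 were -0.82 for Rpl14, -0.63 for Rpl12, -0.57 for Rpl30, -0.52 for Rps21, -0.51 for Rplp2 and -0.47 for Rps3a1. All of these genes had a mean log2 under 10. The largest gaps above it were 0.42 for Rps4l, 0.36 for Rps28 and 0.35 for Rpl24.

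Rpl14 and Rpl12 show the split most clearly. Rpl14, a structural protein of the large subunit, had 9.54, 9.44 and 8.67 in knockdown mice 1 to 3, against 8.81, 8.89 and 9.07 in wild type mice 1 to 3. Rpl12, which binds at the base of the stalk, had 8.34, 8.52 and 7.80 against 7.89, 7.94 and 8.04. For both genes knockdown mice 1 and 2 were the highest of the 6 and knockdown mouse 3 the lowest. Over all 3 knockdown mice the differences were 0.29 ± 0.21 and 0.27 ± 0.18 (adjusted p = 0.458 and 0.413).

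Without knockdown mouse 3, Rpl14 differed by 0.57 and Rpl12 by 0.48, and both rose (adjusted p = 0.00132 and 0.00344). In that fit 11 of the 58 members rose and 0 fell, or 19.0%, against 17.1% of all genes that rose and 10% that fell, so the members' share was near that of all genes. Besides Rps4l, Rpl14 and Rpl12, the genes were Rps21, Rpl7l1, Rpl30, Rps3, Rpl34, Rpl36, Rpl27a and Rplp1, with differences from 0.16 for Rplp1 to 0.27 for Rps21. The share differed with brightness. Without knockdown mouse 3, 6 of the 47 members with a mean log2 of 10 or more rose (12.8%), against 25.3% of all genes that bright. Of the 11 dimmer members 5 rose (45.5%), a share that was not set beside equally dim genes. The members' median difference was 0.10 without this mouse and 0.09 with it. Without knockdown mouse 1, Rps4l, Rplp1 and Rpl36 rose, which is 5.17% of the members and 5.54% of all genes, while 5.82% of all genes and 0 members fell. Without knockdown mouse 2 or wild type mouse 1, 2 or 3, Rps4l alone rose, or 1.72% of the members, against 3.07%, 2.14%, 2.21% and 2.56% of all genes that rose and 3.45%, 2.62%, 2.73% and 2.79% that fell.

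**Figure D4:**
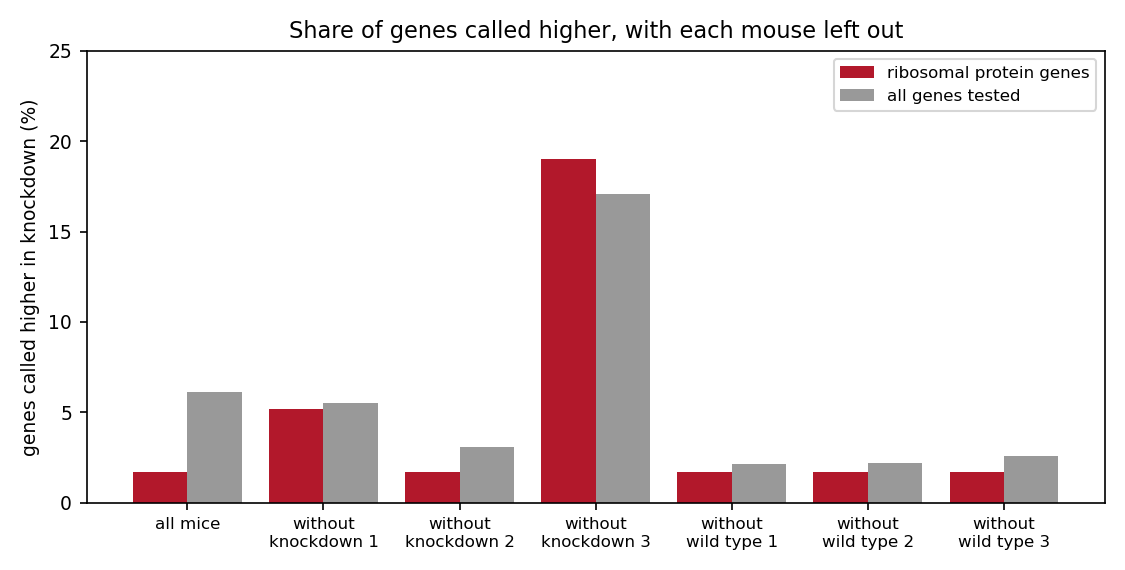
Percent of genes called higher in MYB knockdown (vertical axis) with all mice and with each mouse left out (horizontal axis), for the 58 ribosomal protein genes and beside them all genes tested. The ribosomal protein bars stand at 1.72% with all mice, 5.17% without knockdown mouse 1 and 19.0% without knockdown mouse 3, and only the last is above the bar of all genes.

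Knockdown mouse 3 was also the highest of its group in some markers of red cell precursors. Klf1, the erythroid transcription factor, read 7.72, 7.10 and 8.59 in knockdown mice 1 to 3 and 7.17, 7.78 and 7.59 in the wild type mice. Epor, the erythropoietin receptor, read 6.92, 6.53 and 7.77 against 6.39, 6.84 and 6.85. Mouse 3 was the highest of the 6 for both and for Slc4a1, a red cell membrane protein (6.46, against 6.01 to 6.37 in the other 5). It was not for Alas2 (5.26, within the 4.97 to 5.45 of the others) or Tfrc (9.90, with wild type mouse 1 at 9.96). In all, 0 of the 5 erythroid markers tested passed the test (0 without this mouse), with 2 higher at an unadjusted p under 0.05. Outside that list, mouse 3 was the lowest of the 6 for the monocyte markers Csf1r (8.77), Ccr2 (8.92), F13a1 (6.66) and Irf8 (10.43). It was not the lowest for Cx3cr1, Adgre1 or Mpeg1. The part of either list in the ribosomal protein values of this mouse was not tested.

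**Figure D5:**
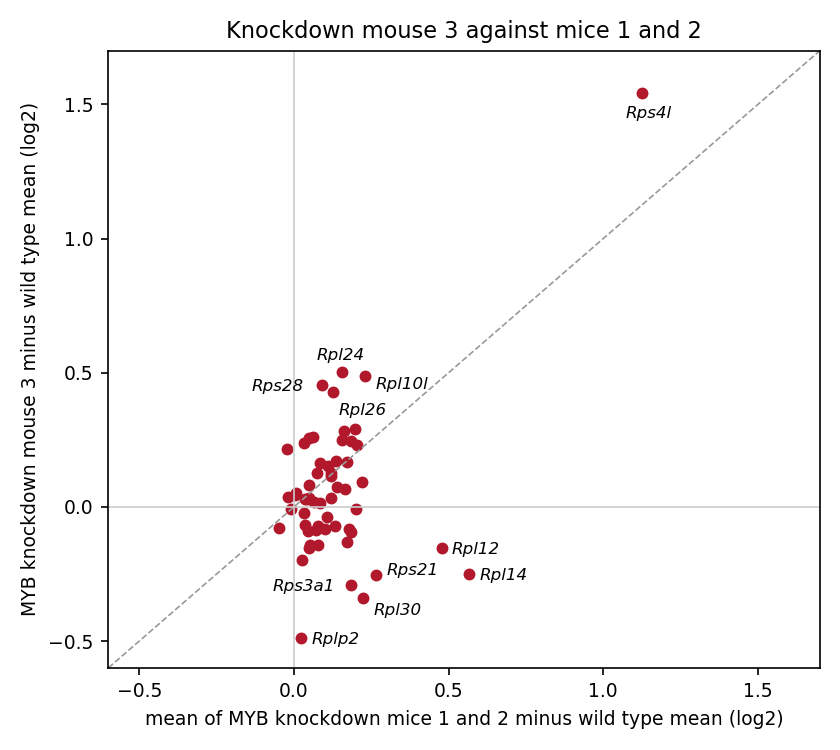
Each point is a ribosomal protein gene, with the mean of knockdown mice 1 and 2 minus the wild type mean (horizontal axis, log2) and knockdown mouse 3 minus the same mean (vertical axis, log2); the dashed line marks equal values. Rps4l lies far up and to the right, while Rpl14, Rpl12, Rpl30 and Rps21 lie to the right of 0 but below it on the vertical axis.

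Ribosomal protein genes have many processed copies in the genome, and the array holds several probe sets for many of them, so the probe sets of a gene were compared. Of the 58 members, 38 had more than 1 probe set, 190 in all. In 31 of these 38 every probe set had the sign of the one used. Of the 152 probe sets not used, 123 had a difference above 0, with a median of 0.06 and a range of -0.08 to 0.91, the highest being the second probe set of Rps4l. Probe sets of 1 gene can share sequence with its copies and with each other, so they are not independent measurements.

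The members' genes lie on 17 chromosomes. On chromosome 10, which also carries Myb, the 4 members Rpl32l, Rps12, Rps15 and Rpl41 differed by 0.02, 0.02, 0.04 and 0.06, and none of them passed the test.

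Among genes that make, regulate or work beside the ribosome, the assembly factors had larger median differences than the ribosomal proteins. These factors were mostly dimmer than the members. The 11 members with a mean log2 under 10 had a median difference of 0.09 with all mice and 0.22 without knockdown mouse 3. Without that mouse the medians were 0.37 for the small and 0.34 for the large subunit assembly factors. Of the ribosomal proteins named outside the symbol rule, 2 were tested: Rpsa, a protein of the small subunit, gave 0.18 ± 0.06 (adjusted p = 0.0896; 0.0378 without knockdown mouse 3) and Fau, the precursor of another, 0.02 ± 0.07 (adjusted p = 0.919). Of 14 elongation and initiation factors and other genes with TOP mRNAs, 0 passed the test in limma, with 4 higher and 0 lower at an unadjusted p under 0.05. Without knockdown mouse 3, 6 of the 14 rose (42.9%, against 17.1% of all genes) and 0 fell: Eif3e, Eif3l, Npm1, Nap1l1, Eef1d and Eef2. With all mice their median difference was 0.09, the same as that of the ribosomal protein genes. Those of smallest p with all mice were the initiation factor subunits Eif3e (0.28, adjusted p = 0.0527) and Eif3l (0.20, adjusted p = 0.0873), the nucleolar chaperone Npm1 (0.22, adjusted p = 0.112) and the histone chaperone Nap1l1 (0.21, adjusted p = 0.171).

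Among 13 regulators of TOP mRNAs and of the mTORC1 pathway, Larp1 rose and none fell, with a median difference of 0.15. Larp1, which binds the TOP tract and represses these mRNAs when mTORC1 is inactive, had 11.17, 11.08 and 11.51 in the knockdown mice, against 10.68, 10.70 and 10.89 in the wild type mice. The groups did not overlap, with knockdown mouse 3 the highest (difference 0.50 ± 0.12, adjusted p = 0.031). The call was lost without any one of the 3 wild type mice, with adjusted p of 0.134, 0.129 and 0.0536, and was kept without each knockdown mouse. Larp4, a poly(A) tail-binding relative, gave 0.29 (adjusted p = 0.0991; 0.0308 without knockdown mouse 3), Eif4ebp1, a repressor of cap binding that mTORC1 inactivates, 0.31 (adjusted p = 0.221), and Pdcd4, an inhibitor of the helicase eIF4A, -0.29 (adjusted p = 0.194).

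Factors of small subunit assembly were higher in all 11 genes tested, with a median difference of 0.33, and 2 of them rose. Bysl, which acts on the pre-40S particle, had 8.49, 8.48 and 8.47 in the knockdown mice against 7.77, 7.78 and 7.91 in the wild type mice. The groups were separate and the knockdown mice nearly equal (difference 0.66 ± 0.10, adjusted p = 0.00339). Pno1, the partner of the nuclease Nob1 in trimming 18S rRNA, rose by 0.63 ± 0.14 (adjusted p = 0.0228), a call lost without knockdown mouse 2 (adjusted p = 0.084) or without wild type mouse 1, 2 or 3 (adjusted p = 0.0506, 0.104 and 0.0796). Ltv1, a pre-40S factor, gave 0.34 (adjusted p = 0.0562) and Nob1 0.33 (adjusted p = 0.0576).

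Of 16 factors of large subunit assembly and export, 4 rose and 0 fell, with a median difference of 0.19. Mrto4, which holds the place of P0 on the pre-60S particle, had 8.39, 8.51 and 8.76 in the knockdown mice against 7.64, 7.72 and 7.77 in the wild type mice. Its groups were separate (difference 0.84 ± 0.12, adjusted p = 0.00313). Grwd1, a chaperone-like factor of the large subunit, rose by 0.62 (adjusted p = 0.00804), and Bop1 and Pes1, partners in the processing of its rRNA, by 0.67 and 0.37 (adjusted p = 0.00895 and 0.0301). Bysl and Mrto4 were called without each mouse in turn; Grwd1 was lost without wild type mouse 1 (adjusted p = 0.0579), Bop1 without wild type mouse 1 or 2 (0.0533 and 0.0535), and Pes1 without any one mouse other than knockdown mouse 3 (adjusted p from 0.051 to 0.148).

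Factors that meet the new chain at the ribosome had a median difference of 0.06, and 0 of 5 passed in limma, with 1 higher and 0 lower at an unadjusted p under 0.05. Naca gave 0.19 (adjusted p = 0.121), its partner Btf3 0.06 (adjusted p = 0.703), the relative Btf3l4 -0.15 (adjusted p = 0.442) and the chaperone Dnajc2 0.18 (adjusted p = 0.376). Of 5 genes of the 5S particle and the p53 response, 0 passed, with 1 higher and 1 lower at an unadjusted p under 0.05. Mdm4, an inhibitor of p53, gave -0.49 (adjusted p = 0.0825), the 5S particle factors Rpf2 and Rrs1 0.32 and 0.38 (adjusted p = 0.153 and 0.317), and Ccng1, a p53 target, 0.16 (adjusted p = 0.276). Without knockdown mouse 3, Mdm4 fell (difference -0.30, adjusted p = 0.00474), and Rpf2 and, of the list before, Dnajc2 rose (0.38 and 0.29, adjusted p = 0.0294 and 0.00924).

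Over these lists together, 7 genes rose and 0 fell with all 6 mice, and 32 rose and 1 fell without knockdown mouse 3. Without that mouse, 9 of 11 small subunit and 11 of 16 large subunit assembly factors rose, or 81.8% and 68.8%, against the 17.1% of all genes given above. With all mice the shares were 18.2% and 25%, against 6.12% of all genes. The other lists had lower shares. Among the regulators of TOP mRNAs and mTORC1 7.69% rose with all mice and 23.1% without knockdown mouse 3. The factors at the new chain, and the genes of the 5S particle and p53 response, each had 0 with all mice and 20% without it.

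Markers of several blood lineages differed between the groups. Mean levels below are over the genes of each list with a probe set of their own. All 5 megakaryocyte markers tested rose, with a mean log2 level of 8.80 to 8.91 in the knockdown mice, against 7.10 to 7.30 in the wild type mice. Of 11 neutrophil granule genes 8 fell, with 9.87 to 10.42 in the knockdown and 11.54 to 11.70 in the wild type mice. Of 7 monocyte markers 1 rose and 2 fell (8.45 to 9.05 against 9.08 to 9.29), and of 7 B lymphoid markers tested 3 fell (6.15 to 6.40 against 6.74 to 7.33). Of 3 T and NK markers tested 0 were called, with 0 at an unadjusted p under 0.05 (4.87 to 5.13 against 4.94 to 5.10), and the erythroid markers lay at 7 to 7.59 against 6.91 to 7.13. Without knockdown mouse 3, 10 of 11 neutrophil and 5 of 7 B lymphoid markers fell, 2 monocyte markers rose and 2 fell, and the megakaryocyte and T and NK counts were the same. In bulk RNA of sorted cells, fewer cells of a type and less RNA per cell cannot be told apart, and the part of these markers' cells in the ribosomal protein values was not tested.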

How the data were processed

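The authors deposited log2 values, 1 for each probe set on each array. The submitters' processing notes name Affymetrix Expression Console and limma; their versions and roles, the background correction and the normalization were not stated in the sources used here. Arrays have no read depth, and it is their number that limits the precision. No scan date or batch was stated either.

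The platform annotation gave exactly 1 symbol to 21789 of 35556 probe sets, which were used; the brightest over all 6 arrays stood for its gene. Genes in the lowest 30% by mean were left out, which left 13956. Knockdown was compared with wild type in limma 3.58.1 (R 4.3.3; lmFit, eBayes with a trend), without covariates, two-sided, with p-values adjusted by Benjamini-Hochberg over these genes and a threshold of 0.05. Errors are the fit's standard errors. Intervals are 95% and not adjusted for the number of genes. The code was tested on simulated data.

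The members, the gene lists and the rule for named genes were chosen with earlier results of these data known. Named were Myb, Kit and Itgam, called members, the 6 highest and 6 lowest differences, paralogs, members with a role of their own (Rpl11 and Rpl13a are not analysed here), and up to 4 genes of smallest p per list. Rps4x, Rps9, Rpl27a, Rps28, Rpl30, Rps21, Rps3a1, Rps3, Rpl34, the members on chromosome 10, Eef1d, Eef2 and the erythroid and monocyte markers were named after their values were seen. Labels name separate mice. The fit was repeated with a replicate block, without each mouse, after quantile normalization or median centring, with other filters on dim genes, with probe sets averaged per gene, with eBayes robust or without its trend, with array weights, at an adjusted p of 0.1 and with a minimum of 1.5-fold. Symbols follow the annotation, where Rps3a1 stands for Rps3a. Promoters are RefSeq's.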

Additional observations from a re-analysis of the deposited data

How the results depend on the processing

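Rps4l was called under every alternative, with adjusted p between 2.11e-06 and 0.0085, and 0 members fell under any. The number of members that rose, 1 with all mice, was 1 to 11 with each mouse left out, 2 after quantile normalization, 8 after median centring, 2 with the lowest 50% left out, 13 with array weights and 5 at an adjusted p of 0.1; without Rps4l, an alternative chosen after seeing the data, it was 0. The members' median of 0.09 became 0.17 after median centring, which moved the median of all genes by less than 0.1, to 0.09, and 57 of 58 members were then above 0, against 68.4% of all genes. After quantile normalization the members' median was 0.08, and 82.8% of the members were above 0, against 61.1% of all genes. In the other ribosome lists, 7 rises became 2 to 32 with each mouse left out, 16 after centring, 33 with weights and 15 at 0.1, and 0 falls became 0 to 1, 1 after quantile normalization, 2 with weights and 1 at 0.1. Over all genes, 854 rises and 765 falls became 298 to 2391 and 365 to 1399 with each mouse left out, and 2351 and 1561 with weights; rises were 1433 after centring and 1374 at 0.1, and a minimum of 1.5-fold gave 407 and 508. With the replicate block 1 member and 6 genes of the other lists rose, and of the genes named Pes1 was lost (adjusted p = 0.0792). Same-numbered mice deviated with correlations of 0.29, -0.19 and -0.08, so the numbers do not pair them, and not every mouse correlated best with its own number. Signs of differences near 0 turned. With each mouse left out, Rpl10 ran from -0.0107 to 0.0311, Rps6 from -0.0363 to 0.0122, Fau from -0.0267 to 0.0699, Rplp2 from -0.296 to 0.0228, Rpl5 from -0.106 to 0.0245, Rps20 from -0.0591 to 0.0479, Rpl23a from -0.0603 to 0.0509 and Rps19 from -0.00337 to 0.0529. After centring, Rps6 stood at 0.0646, Rpl23a at 0.0612, Rps20 at 0.0555, Rpl5 at 0.0257 and Rps25 at 0.0168; Rps25 stood at 0.0101 with the mean of its probe sets, and Rps20 at 0.0128 and Rpl23a at 0.0201 with weights. The cause of these changes was not tested.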

Other observations

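The neighbours of Rps4l on chromosome 6 were read after its value was seen. Of the 5 tested genes on each side, 2 rose, 1 fell and 7 were not called. Over all genes tested 6.12% rose and 5.48% fell, and whether this stretch differs from others was not tested. Sinhcaf, a subunit of a Sin3-histone deacetylase complex, rose by 0.41 (adjusted p = 0.0255) and 3010003L21Rik by 0.70 (adjusted p = 0.039). Far2, a fatty acyl-CoA reductase, had 8.68, 8.19 and 8.37 in the knockdown mice, against 10.48, 10.18 and 10.06 in the wild type mice, and fell by 1.83 (adjusted p = 0.000273). The 2 nearest tested genes, Tmtc1 and Ipo8, differed by 0.03 and -0.23 (adjusted p = 0.888 and 0.284).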
